A study of Homo sapiens with 4 samples.

Results

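The genes of SREBP regulation, cholesterol synthesis and fatty acid synthesis were followed through 4 lists of open chromatin regions from Huh7, a human liver cancer cell line. The list of 28 genes was taken as given, and its peaks were those whose deposited nearest-gene name was one of them. In all, 159 of the 192435 peaks carried such a name, for 27 of the 28 genes, out of 34326 nearest-gene names in the lists. HSD17B7, a reductase of sterol synthesis, had no peak by name and none within 1 kb of its transcription start site (TSS) in any list. Open chromatin was measured by ATAC-seq, in which a transposase cuts accessible DNA, with 50000 cells counted per library. Cells held a short hairpin RNA, either the control (shControl) or one against ARID1A (shARID1A), which encodes a DNA-binding subunit of the SWI/SNF chromatin remodelling complex. Both kinds of cell were treated for 6 h with rapamycin at 100 nM, which inhibits the mTORC1 kinase complex, or with its solvent DMSO. Each of the 4 groups was 1 library, and the labels do not say whether a knockdown line was 1 clone or how much ARID1A was left. No value below has a replicate, no p-value was computed, and no difference could be set against the spread between replicates.

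SREBPs are membrane-bound transcription factors that turn on genes of lipid synthesis. SREBF1 and SREBF2 encode them, SCAP escorts them to the Golgi when sterols are low, INSIG1 and INSIG2 hold SCAP back in the endoplasmic reticulum, and MBTPS1 encodes the site-1 protease that makes the first cut of their release. Liver cells make cholesterol through mevalonate and fatty acids through malonyl-CoA, and mTORC1 activity is known to promote SREBP processing. SREBPs bind sterol regulatory elements, and NF-Y, which binds CCAAT boxes, and Sp1, which binds GC boxes, are known partners at many of their targets.

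Of the 28 genes, 25 matched a promoter window in the RefSeq table for GRCh38.p14, which runs from 250 bases before to 50 after the TSS. FDFT1, SQLE and FASN did not match. The letters TCACNCCAC, called SRE-like here, were found on either strand in 1 of the 25 windows, that of SREBF2, against 1.15% of all 27305 windows and 1.03% of the 9580 windows of protein-coding genes that had a peak in all 4 lists. CCAAT was found in 15 of 25, against 35.7% of all windows and 37.2% of the open protein-coding ones. The GC box GGGCGG was found in 23 of 25, against 44.6% and 73.7%, and the E-box CACGTG in 4 of 25, against 7.43% and 10.4%. Each motif was searched on its own, so matches of different motifs may overlap. A match is a description and not a binding site, and absence says only that these letters were not in the window. The windows had a median GC content of 68%, against 66% in the open protein-coding windows, from 46% in ACACB to 82.3% in ACACA. The CCAAT matches were most frequent in MVK, with 5, and MSMO1, with 4, followed by MVD and FDPS with 3 each.

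Stretches upstream of the TSS are shown for 6 genes: the one with the SRE-like letters, the gene with the strongest promoter peak, a pair rich in CCAAT, the protease gene with no match, and the gene whose promoter peak came and went. They are read 5′ to 3′ on the gene's strand from the RefSeq windows (GRCh38.p14), in lower case, and capitals mark SRE-like letters and CCAAT or its complement ATTGG. Each ends before the most upstream start site that the RefSeq table or the deposited distances give.
SREBF2, chr22:41832855-41833078, plus strand: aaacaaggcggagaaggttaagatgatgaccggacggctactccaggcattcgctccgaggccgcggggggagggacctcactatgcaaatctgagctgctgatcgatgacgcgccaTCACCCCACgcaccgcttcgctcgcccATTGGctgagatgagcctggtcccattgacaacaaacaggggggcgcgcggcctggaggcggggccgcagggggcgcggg
HMGCS1, chr5:43313513-43313662, minus strand: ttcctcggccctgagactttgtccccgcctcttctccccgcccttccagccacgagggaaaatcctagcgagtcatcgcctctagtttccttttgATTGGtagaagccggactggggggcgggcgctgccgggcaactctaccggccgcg
MSMO1, chr4:165327419-165327668, plus strand: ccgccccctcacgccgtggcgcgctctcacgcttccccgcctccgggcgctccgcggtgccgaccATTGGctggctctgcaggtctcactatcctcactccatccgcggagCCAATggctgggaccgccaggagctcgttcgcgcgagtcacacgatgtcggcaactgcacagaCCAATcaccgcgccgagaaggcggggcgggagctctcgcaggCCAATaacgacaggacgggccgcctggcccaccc
MVD, chr16:88663111-88663341, minus strand: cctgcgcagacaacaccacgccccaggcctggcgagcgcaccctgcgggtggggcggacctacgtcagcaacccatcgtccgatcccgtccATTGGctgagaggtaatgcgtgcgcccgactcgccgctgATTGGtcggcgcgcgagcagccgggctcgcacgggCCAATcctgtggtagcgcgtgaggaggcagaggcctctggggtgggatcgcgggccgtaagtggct
MBTPS1, chr16:84116943-84117192, minus strand: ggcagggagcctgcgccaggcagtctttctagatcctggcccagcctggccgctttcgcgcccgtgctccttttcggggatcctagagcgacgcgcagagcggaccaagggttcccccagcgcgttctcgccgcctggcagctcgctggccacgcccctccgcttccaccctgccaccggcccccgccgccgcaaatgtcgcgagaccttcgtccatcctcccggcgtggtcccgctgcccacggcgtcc
ELOVL6, chr4:110198677-110198865, minus strand: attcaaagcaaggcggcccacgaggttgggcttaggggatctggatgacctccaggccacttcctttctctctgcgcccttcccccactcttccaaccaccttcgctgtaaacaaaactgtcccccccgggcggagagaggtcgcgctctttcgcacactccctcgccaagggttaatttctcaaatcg
The SREBF2 stretch has the SRE-like letters and 1 CCAAT match in capitals close together. The MBTPS1 and ELOVL6 stretches have no capitals, and the window of MBTPS1 also lacked the GC box and the E-box.

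The peak lists held 52192 peaks for shControl DMSO, 49783 for shControl rapamycin, 45700 for shARID1A DMSO and 44760 for shARID1A rapamycin, and values below keep this order. A peak was a promoter peak when its deposited distance to a TSS was at most 1000 bp, which gave 13050, 12933, 13067 and 12823, and distal otherwise, which gave 39142, 36850, 32633 and 31937. The lists thus differed in length almost wholly in distal peaks. The files give no read depth. Promoters of 6, 7, 7 and 7 of 8 hepatocyte genes held a peak, with FGB at none in any list, against 1 of 5 leukocyte genes in each list (LYZ), 0 of 4 endothelial genes, and 1, 1, 2 and 1 of 4 fibroblast genes.

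Nearly every promoter of these lipid genes was open in all 4 lists. By the deposited names, 21, 22, 22 and 19 of the 28 genes had a promoter peak, and 16 had one in every list. By position, with a peak centred within 1 kb of any start site of the gene, the numbers were 26, 27, 27 and 26, and 26 genes had one in every list. The difference lies in names, since the same peak was given another transcript or an overlapping neighbour in another list. The promoter peak of MVD, the last enzyme of the mevalonate arm before isopentenyl diphosphate, was named MVD in shARID1A DMSO and SNAI3-AS1 in the other lists. The peak of CYP51A1, the lanosterol demethylase, was named CYP51A1-AS1 in shControl rapamycin and shARID1A DMSO. The MBTPS1 promoter peak was named AC040169.1 in shARID1A rapamycin, where it ran from 84116398 to 84117564 on chromosome 16 and ranked 1038th.

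Counted by name, 3 of 21 genes lost and 4 of 22 gained their promoter peak with the knockdown in DMSO, against 17.2% and 17.3% of all genes with such a peak. With the knockdown in rapamycin 5 of 22 lost and 2 of 19 gained it, against 17.6% and 16.6%. With rapamycin in shControl 2 of 21 lost and 3 of 22 gained it, against 17.1% and 16.6%, and in shARID1A 5 of 22 and 2 of 19, against 17.5% and 15.9%. These 26 differences by name came down to 4 by position, and all 4 were ELOVL6, which encodes an elongase of long-chain fatty acids. Its promoter peak was listed in shControl rapamycin (chromosome 4, 110198547 to 110198980) at rank 48350 of 49783 and in shARID1A DMSO (110198261 to 110199030) at rank 42095 of 45700, and in neither other list. Both peaks stood near the bottom of their lists, while every list held a stronger peak in the first part of the gene, centred 1760 bp after the RefSeq TSS.

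By the median of each arm, the strongest promoters were those of the mevalonate arm. Ranks are by the deposited peak score within a list, with 1 the strongest, and are given for the strongest peak within 1 kb of any start site of the gene. HMGCS1, which encodes the synthase that makes HMG-CoA, ranked 58th, 171st, 91st and 124th. It thus stood in the top 0.343% of every list. IDI1, the isopentenyl diphosphate isomerase, ranked 232, 661, 794 and 696, and MVD 269, 670, 712 and 581. Both were strongest in shControl DMSO. These IDI1 ranks belong to a start 7507 bp downstream of the RefSeq start, and the region at the RefSeq start ranked 8679, 5119, 5185 and 5822. FDPS, the farnesyl diphosphate synthase, ranked 990, 1074, 525 and 603, and MVK, the mevalonate kinase, 1805, 995, 634 and 729. These were strongest in shARID1A DMSO. PMVK, the phosphomevalonate kinase, had the widest spread of the arm, at 5742, 1979, 1420 and 2369. The median rank of the 6 genes was 1.21, 1.67, 1.47 and 1.45 percent of list length.

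Of the 9 genes of the sterol arm, 8 had a promoter peak, and their median rank was 2.79, 4.54, 4.90 and 4.89 percent of list length. SQLE, the squalene epoxidase, ranked 720, 2265, 844 and 1183, and FDFT1, the squalene synthase, 1898, 2255, 1509 and 2028. MSMO1, a methylsterol monooxygenase, ranked 519, 1103, 1197 and 1245. DHCR7, which completes cholesterol in one branch of the pathway, ranked 546, 1305, 1884 and 1332, and CYP51A1 1010, 1697, 2595 and 2352. For SQLE, MSMO1, DHCR7 and CYP51A1, and for SC5D and LSS below, shControl DMSO held the strongest rank of the 4. For FDFT1 and TM7SF2 it did not. SC5D, a sterol desaturase, ranked 3404, 4686, 5289 and 4817, and LSS, the lanosterol synthase, 3918, 8620, 5109 and 4259. TM7SF2, a sterol reductase, was the weakest of the arm at 13369, 11737, 11532 and 13607.

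The SREBP machinery had median ranks of 6.39, 8.58, 4.78 and 7.49 percent. MBTPS1 held the steadiest place at 1172, 1004, 835 and 1038. SREBF2 ranked 1953, 3869, 2164 and 3515, with both rapamycin lists below both DMSO lists. SCAP ranked 5001, 1362, 2202 and 3188, INSIG2 3834, 4676, 2059 and 3098, and INSIG1 2837, 6145, 5120 and 5923. SREBF1 ranked 8584, 5352, 6492 and 6618, the weakest of the 6 genes in every list except shControl rapamycin, where INSIG1 was weaker. These SREBF1 ranks belong to different start sites. An internal start 17091 bp downstream was the strongest in the shControl lists, and the RefSeq start in the shARID1A lists. Taken singly, the RefSeq start ranked 9345, 10057, 6492 and 6618, and the internal start 8584, 5352, 13793 and 12345. STARD4, a cholesterol carrier protein, ranked 6936, 6088, 3967 and 3644.

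Fatty acid synthesis had the weaker promoters, with medians of 13.8, 19.3, 15.2 and 15.4 percent over 5, 6, 6 and 5 of its 6 genes. ACACA, the cytosolic acetyl-CoA carboxylase, ranked 2062, 2552, 1976 and 4216 at a start 47701 bp downstream of its RefSeq start. The region at its RefSeq start ranked 11285, 14015, 10091 and 15279. ACLY, which makes cytosolic acetyl-CoA from citrate, ranked 3854, 4985, 3049 and 3941. SCD, the stearoyl-CoA desaturase, ranked 7190, 8750, 7734 and 6889. FASN, the fatty acid synthase, ranked 8010, 10421, 6168 and 10067, and again both rapamycin lists stood below both DMSO lists. ACACB, the carboxylase of the outer mitochondrial membrane, ranked 35949, 33735, 32579 and 38417, so its promoter was a weak peak everywhere.

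**Figure D1:**
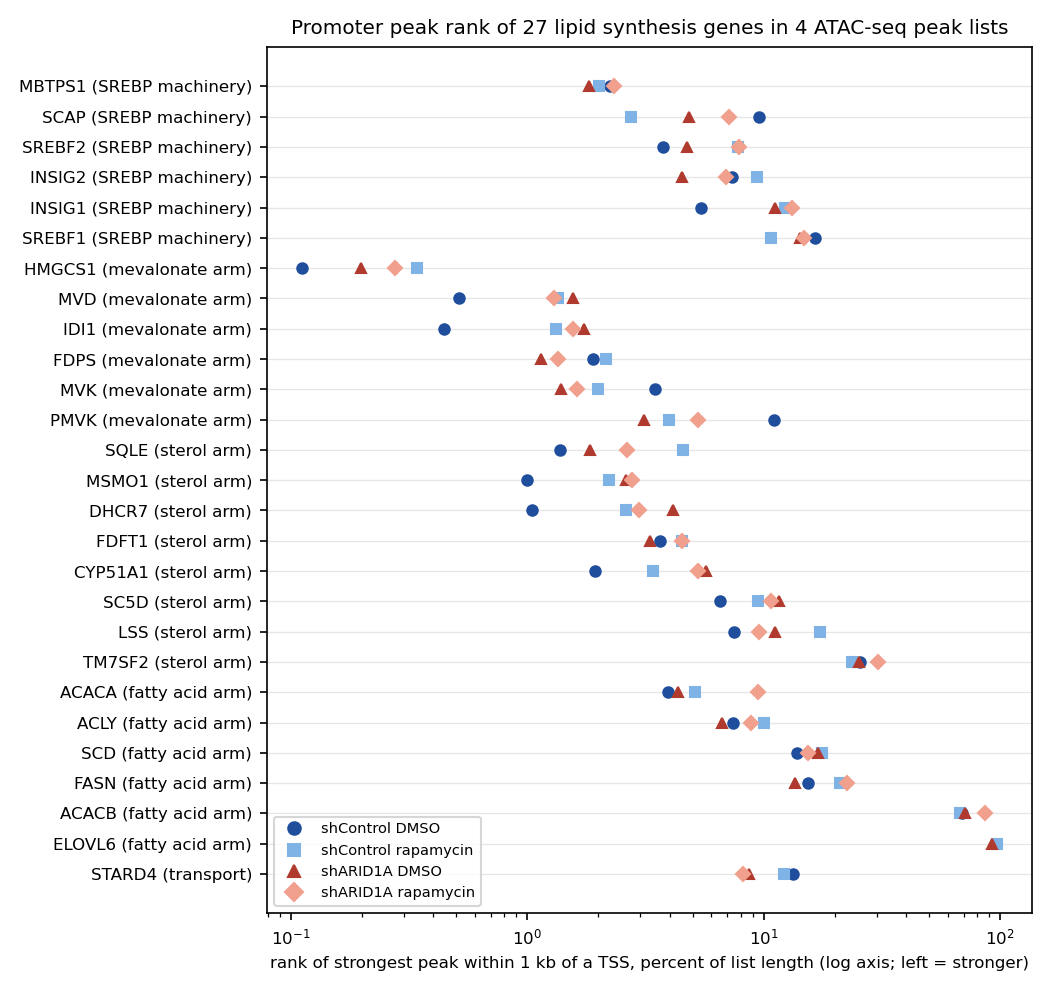
Rank of the strongest peak within 1 kb of a start site for 27 genes (rows, by role) in the 4 lists (symbols), in percent of list length on a log axis, where left is stronger; each symbol is 1 library. HMGCS1 stands leftmost in every list and ELOVL6 and ACACB rightmost, and within a gene the lists mostly lie closer together than the genes do. The SREBF1 symbols show an internal start in the shControl lists and the RefSeq start in the shARID1A lists. The IDI1 and ACACA symbols show a start downstream of the RefSeq start in every list.

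Taken on RefSeq start sites alone, so that genes were treated alike, 23, 24, 24 and 23 of the 25 lipid genes had a promoter peak, against 63.5%, 64.0%, 64.6% and 63.6% of 15843 protein-coding genes. Their median rank was 7.35, 9.40, 6.18 and 7.85 percent of list length, against 14.0, 14.3, 14.3 and 14.4 for all protein-coding genes with a peak. In the top 5% of the list stood 9, 10, 11 and 7 of them (39.1%, 41.7%, 45.8% and 30.4%), against 22.0%, 21.1%, 20.3% and 20.0% of the protein-coding genes with a peak. The ranks of this paragraph are a description of 4 libraries, and other gene lists were not compared.

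Among peaks with one of the names, one counted as lost where the list of the knockdown or of rapamycin had no peak sharing 1 bp or more with it, and as gained where the list it was compared with had none. The knockdown in DMSO was compared first: 0 of 21 promoter peaks were lost and 1 of 22 was gained, against 5.82% and 6.56% of all promoter peaks. In rapamycin 1 of 22 was lost and 0 of 19 were gained with the knockdown, against 6.41% and 5.41%. With rapamycin in shControl 0 of 21 were lost and 1 of 22 was gained, against 5.81% and 5.72%. In shARID1A 1 of 22 was lost and 0 of 19 were gained, against 6.5% and 4.51%. All of these were the ELOVL6 peak.

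Of the distal peaks by name, 4 of 22 were lost and 3 of 17 gained with the knockdown in DMSO, against 34.9% and 22.1% of all distal peaks. In rapamycin the knockdown went with 6 of 19 lost and 1 of 17 gained, against 33.8% and 23%. With rapamycin in shControl 1 of 22 was lost and 1 of 19 gained, against 27% and 23%. In shARID1A 5 of 17 were lost and 1 of 17 was gained, against 27.1% and 25.2%. In each comparison the shares are those of few peaks, and the strongest of the differing distal peaks ranked 25766th in its list.

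To compare strength between lists of different length, each of the 31585 regions with a peak in all 4 lists was ranked within each list, and its place is given as a percentile, with 0 the strongest. A shift of 10 points or more was counted. At the start sites of the lipid genes lay 31 such regions, of which some are shared with a divergent neighbour. With the knockdown in DMSO 2 were stronger and 2 weaker by 10 points or more, against 22.1% and 5.48% of all 13005 promoter regions. In rapamycin 2 were stronger and 1 weaker with the knockdown, against 18.3% and 7.74%. With rapamycin in shControl 4 were stronger and 2 weaker, against 15.3% and 10.6%. With rapamycin in shARID1A 0 were stronger and 2 weaker, against 8.75% and 9.6%. The median shifts were 1.07, 0.15, -1.45 and -0.64 points in these comparisons, with positive meaning stronger with the knockdown or rapamycin, against 2.04, 1.31, 0.44 and -0.003 for all promoter regions.

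**Figure D2:**
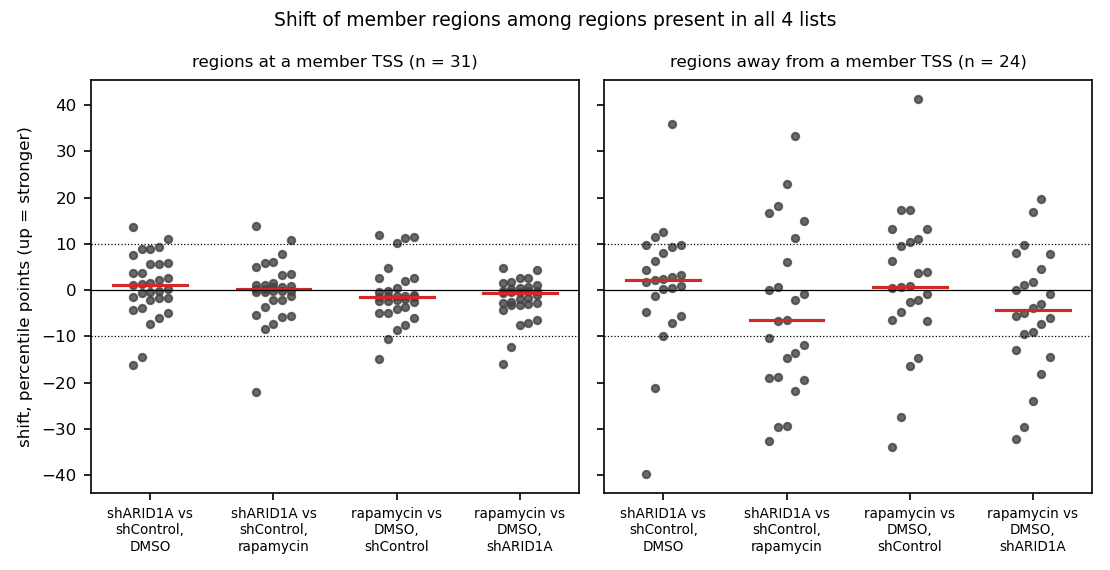
Shift in percentile points (up is stronger in the first-named condition) of the regions at (left, 31) and away from (right, 24) a start site of the lipid genes in 4 comparisons; each dot is 1 region, the red bar the median and the dotted lines 10 points either way. Regions at start sites stay between -22.0 and 13.8 points, and those away from them spread more widely.

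Small shifts under rapamycin leaned to the weaker side in both kinds of cell. These comparisons share no library, but none of the groups has a replicate. In shControl 22 of the 31 regions (71.0%) ranked weaker with rapamycin, against 46.1% of all promoter regions. In shARID1A 21 did (67.7%), against 50.1%. Counts in both kinds of cell largely follow from these 2 counts and are no separate support. Agreement between the kinds of cell was not tested. In both at once 14 ranked weaker (45.2%) and 2 stronger (6.45%), against 23.6% and 27.4% of all 13005 promoter regions. Among the 15 of them with a median percentile of at most 10, 7 ranked weaker in both (46.7%) and 0 stronger, against 25.6% and 26.0% of the 2731 promoter regions of that strength. The regions weaker in both were those of ACACA (both of its start sites), ACLY, FASN, FDFT1 (both), FDPS, HMGCS1, INSIG1, INSIG2, MSMO1, SQLE, SREBF2 and the RefSeq start of SREBF1. By role these were 4 of 6 regions of fatty acid synthesis, 4 of 9 of the sterol arm, 4 of 8 of the SREBP machinery and 2 of 7 of the mevalonate arm. Those stronger in both were STARD4 and the internal start of SREBF1.

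The list in which a region ranked strongest restates the same percentiles and is no separate support. A region weaker with rapamycin in both kinds of cell must rank strongest in a DMSO list. Of the 31 regions, 12 were strongest in shControl DMSO and 14 in shARID1A DMSO, against 3 and 2 in the rapamycin lists of the same cells. For all promoter regions the shares were 18.5%, 21.2%, 28.9% and 31.5%. Most single shifts were small beside the 10 points. HMGCS1, for one, stood at percentiles 0.184, 0.541, 0.288 and 0.393, and whether such differences exceed the spread between replicates was not tested.

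The larger shifts at start sites fell on single genes. The PMVK promoter stood at percentiles 18.2, 6.27, 4.5 and 7.5, which was a shift of 13.7 points with the knockdown in DMSO and 11.9 with rapamycin in shControl. Both shifts use the shControl DMSO list, the only one in which PMVK was weak. The RefSeq start of SCAP was likewise weakest in shControl DMSO, at 15.8, 4.31, 6.97 and 10.1, as did the start of IDI1 that lies beside WDR37, at 27.4, 16.2, 16.4 and 18.4. The LSS promoter stood at 12.4, 27.3, 16.2 and 13.5, and so was weak in shControl rapamycin alone. INSIG1, itself a known SREBP target, stood at 8.98, 19.4, 16.2 and 18.7, strongest in shControl DMSO. FASN stood at 25.3, 32.9, 19.5 and 31.8, a shift with rapamycin of -7.63 in shControl and -12.3 in shARID1A. The RefSeq start of ACACA, beside TADA2A, stood at 35.6, 44.1, 31.9 and 47.8, with shifts of -8.57 and -15.9. A second start of SCAP, 32438 bp into the gene, stood at 16.3, 17.8, 30.8 and 26.1, weaker in both shARID1A lists.

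SREBF1 held 6 regions in every list, and they did not move together. The region at its RefSeq start (chromosome 17, 17835994 to 17837012) stood at percentiles 29.5, 31.8, 20.5 and 20.9, stronger in both shARID1A lists. The region at an internal start 17091 bp downstream (17819636 to 17820155), named MIR33B in every list except shARID1A rapamycin, stood at 27.1, 16.9, 43.3 and 38.9. That was weaker in both shARID1A lists, by 16.2 points in DMSO and 22.0 in rapamycin. A region in intron 1, 6024 bp downstream of the RefSeq start (17830611 to 17831313), stood at 18.7, 25.2, 58.4 and 38.7, with shifts of -39.7 in DMSO and -13.5 in rapamycin. A further intronic region at 13053 bp was even across the lists at 27.4, 29.5, 26.5 and 30.3.

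MBTPS1 had no distal peak by name in any list, because the peaks inside the gene carried other names. By position, 3, 2, 2 and 1 peaks lay inside it. The strongest lay in intron 3, 20046 bp from the start, and was named AC040169.3. It was listed at 84096612 to 84096927 (rank 4748), 84096538 to 84097158 (rank 3782) and 84096664 to 84097254 (rank 9901), and was absent from shARID1A rapamycin. A second lay in intron 19, named SLC38A8, at 84062839 to 84063180 (rank 23142) and 84062864 to 84063304 (rank 29807) in the shControl lists, and was absent from both shARID1A lists. Another, at the end of AC040169.3 (84084887 to 84085384), ranked 32159, was absent from shControl rapamycin, and ranked 25171 and 26583 in the shARID1A lists. The promoter of the gene meanwhile kept percentiles of 3.71, 3.18, 2.64 and 3.29.

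Some peak numbers were skipped in 2 of the lists, 1093 in shControl rapamycin and 6666 in shARID1A DMSO, and no source used here says what they stood for. At the absent peaks of MBTPS1 no number was skipped between the neighbouring peaks.

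ELOVL6 had few distal peaks by name and more by position. By name, 1 intronic peak was listed in shControl DMSO and in no other list (110172960 to 110173274, rank 25766). By position, intronic peaks at ranks 26107, 44412, 45501 and 39403 were likewise in shControl DMSO alone, and a peak 143061 bp into the gene was in both shControl lists at ranks 23703 and 20885. The shARID1A lists thus held none of these 6 regions, and shControl rapamycin held only that at 143061 bp. They are grouped here because they were absent. Of all distal peaks in shControl DMSO, 34.9% were lost with the knockdown and 27% with rapamycin. In shARID1A DMSO 2 peak numbers were skipped in the interval. The intronic region nearest the start, present everywhere, stood at percentiles 40.7, 68.1, 40.3 and 45.2.

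**Figure D3:**
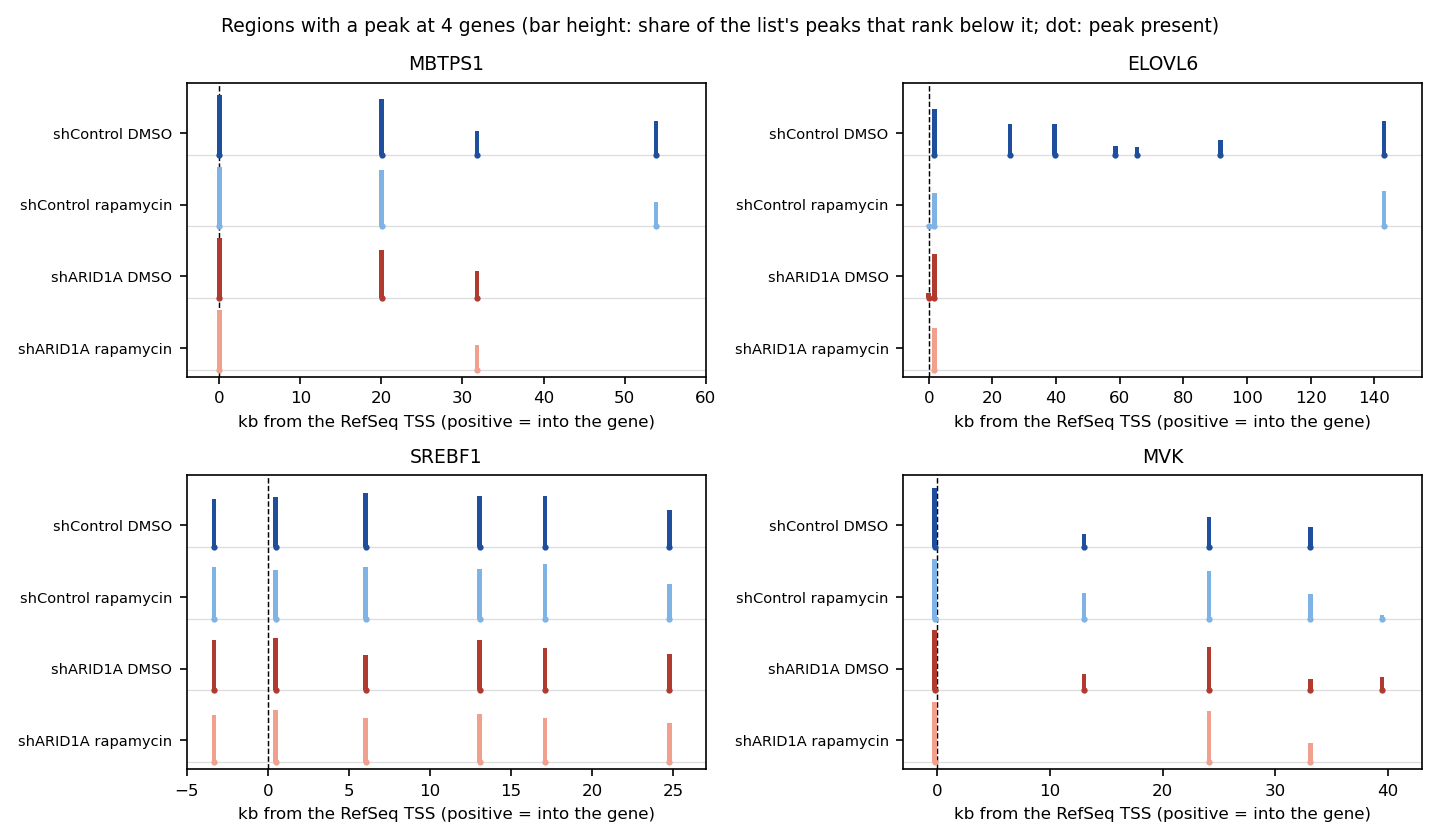
Regions with a peak at MBTPS1, ELOVL6, SREBF1 and MVK in the 4 lists (rows), by distance in kb from the RefSeq start (positive runs into the gene); a dot marks a peak that is present and bar height the share of the list's peaks that rank below it. The intron 3 peak of MBTPS1 is missing in shARID1A rapamycin. Of 6 distal ELOVL6 regions missing in both shARID1A lists, only that 143061 bp into the gene is present in shControl rapamycin.

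MVK, whose promoter peak was named for its neighbour MMAB in every list, had a region at the end of the gene (chromosome 12, 109597296 to 109598535) at percentiles 76.9, 35.6, 41.1 and 24.3. It was weakest in shControl DMSO, and ranked stronger with rapamycin by 41.3 points in shControl and 16.8 in shARID1A. An intronic MVK peak ranked 40994, 28819 and 33747 in the first 3 lists and was absent from shARID1A rapamycin. A weak intergenic peak beyond the gene (109613083 to 109613411) was listed in shControl rapamycin (rank 46642) and shARID1A DMSO (rank 35839) and in neither other list.

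Regions of fatty acid genes away from start sites also varied. In ACACB an intronic region at 38121 bp stood at 20.9, 20.4, 22.1 and 20.4, while one at 81930 bp (109198145 to 109198889) stood at 59.9, 66.6, 67.0 and 99.2, near the bottom in shARID1A rapamycin. A further ACACB region at 147809 bp stood at 47.6, 81.5, 47.3 and 48.2, low in shControl rapamycin alone. The ACLY intronic regions stood at 72.2, 58.9, 82.2 and 88.1 for 10754 bp and at 76.5, 77.4, 66.8 and 96.3 for 23747 bp, and both were weakest in shARID1A rapamycin. FASN had a region at its far end at 80.1, 96.5, 72.0 and 95.9, lower in both rapamycin lists, as its promoter was. Another FASN peak, upstream in an intron of CCDC57 (chromosome 17, 82106122 to 82106524), was listed in shARID1A rapamycin alone at rank 43286. ACACA had a peak in shControl DMSO alone (rank 33522, with 1 number skipped there in shARID1A DMSO) and one in shARID1A rapamycin alone (rank 14945). SCD had 1 peak annotated at its far end and named OLMALINC, in shControl DMSO alone at rank 42194.

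In the sterol and mevalonate arms distal regions were few. The DHCR7 region at the end of the gene (chromosome 11, 71433250 to 71434342) stood at 41.3, 46.1, 62.5 and 65.5, weaker in both shARID1A lists by 21.2 and 19.4 points. HMGCS1 had a peak in intron 1 (chromosome 5) in shControl DMSO (43302694 to 43303404, rank 42100) and one in shControl rapamycin (43301689 to 43302794, rank 31159). These overlapped only at their ends. Another lay in shARID1A DMSO alone (43306663 to 43307113, rank 41223). CYP51A1 was the deposited name, in shControl DMSO and shARID1A rapamycin, of a region annotated at the end of AKAP9, which stood at 30.6, 21.1, 18.0 and 27.5. FDFT1 had an intronic peak in both shControl lists at ranks 51341 and 40315 and in neither shARID1A list. No number was skipped at the absences in HMGCS1 or FDFT1.

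Around the SREBP machinery, an intergenic INSIG1 peak (chromosome 7, 155316213 to 155317431) ranked 42425, 46419 and 34806 and was absent from shARID1A rapamycin. The next INSIG1 region stood at 84.0, 66.8, 88.7 and 88.6. A weak INSIG2 peak was in the shControl lists alone, at ranks 49144 and 47768, while the stronger INSIG2 region beyond it stood at 68.2, 67.6, 58.9 and 50.9. SCAP had a peak in intron 20 in shARID1A DMSO alone (chromosome 3, 47414086 to 47414827, rank 38911). SREBF2 had a region inside the gene in all lists at 87.3, 83.5, 81.1 and 95.4. There were 3 further regions inside the gene and 1 at its far end, each absent from at least 1 list, and no peak in them was named SREBF2.

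**Figure D4:**
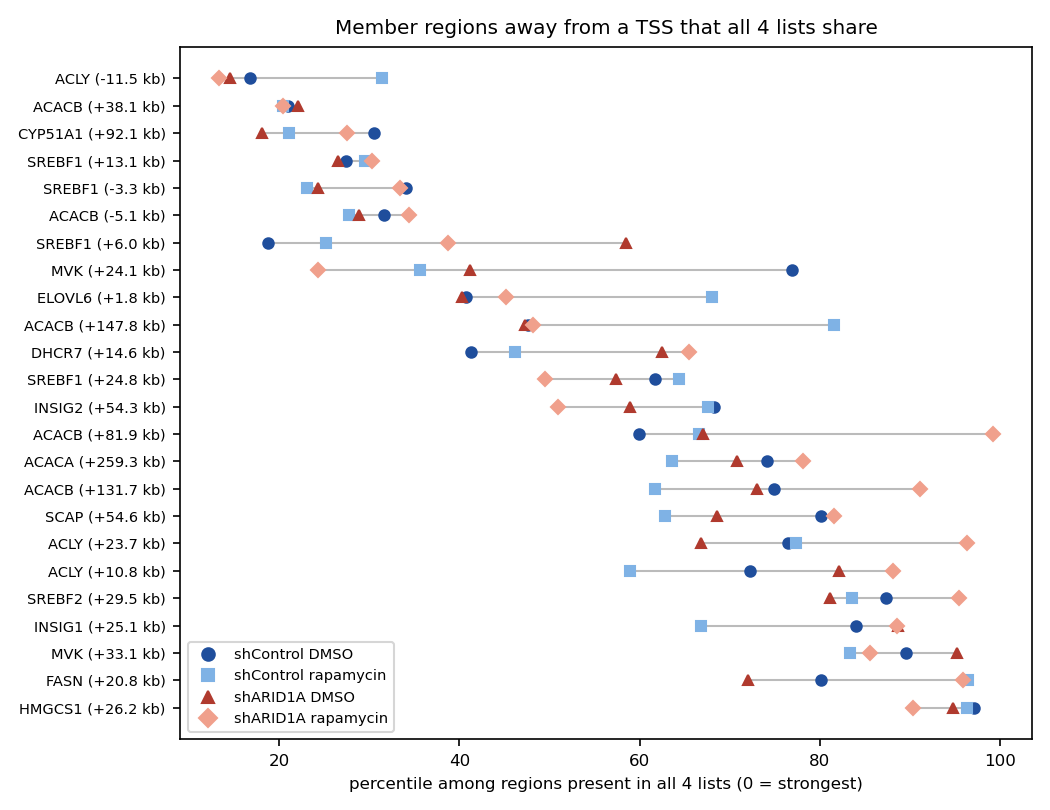
Percentile of 24 regions away from a start site of the lipid genes that all 4 lists share (rows, with distance in kb from the RefSeq start), among 31585 common regions, where 0 is the strongest; symbols are the lists. The ACACB region at 38121 bp stays between 20.4 and 22.1, while the MVK region at 24121 bp and the SREBF1 region at 6024 bp spread widely.

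The 24 regions that all lists share here lay away from start sites of the lipid genes, and were not screened for start sites of other genes. The distal regions set beside them lay over 1 kb from any deposited start site, so the 2 sets are not quite alike. With the knockdown in DMSO 3 of the 24 were stronger and 2 weaker by 10 points or more. Of all distal regions in all lists, 50.3% moved that far in either direction. With the knockdown in rapamycin 6 were stronger and 11 weaker, against 51.4% in either direction. With rapamycin in shControl 7 were stronger and 4 weaker, against 41.6%, and in shARID1A 2 and 6, against 39.3%. Their median shifts were 2.30, -6.51, 0.74 and -4.33 points, against -2.43, -1.78, -0.60 and 0.03 for all distal regions. Of 53 regions in or near the lipid genes and away from their start sites, 24 were in all lists and 16 in 1 list. Of all distal regions, 34.5% were in all lists. The lists held 44, 37, 35 and 28 of the 53, against 37219, 35070, 30748 and 29994 of all 53930 distal regions. No share of all distal regions in 1 list is given here. At start sites 31 of 32 regions were in all lists, against 81.8% of all promoter regions.

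Of 15 other genes of the pathway, among them the acetyl-CoA thiolase ACAT2, the protease MBTPS2 and the desaturases FADS1 and FADS2, 12 had a promoter peak by position in every list. On RefSeq start sites alone, 63.5%, 64.0%, 64.6% and 63.6% of protein-coding genes had a promoter peak. By name these genes of the pathway had 10, 10, 10 and 11 promoter peaks and 15, 10, 13 and 8 distal peaks. The lists held 39142, 36850, 32633 and 31937 distal peaks in all.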

How the data were processed

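ATAC-seq peaks of 4 Huh7 libraries, 1 per group, were used as deposited. The submitters' processing notes name BWA, MACS2 2.0 and the build GRCh38 (hg38). No source used here gives settings, duplicate handling, the transposase offset or read depth. Peaks were listed per library, not on pooled samples. Each peak has coordinates, a score, an annotation, a nearest gene and its distance in bp, per the file headers. This deposited score is the authors' own value on an unstated scale, and served only to rank peaks within a list.

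Ranks, overlaps of at least 1 bp, merged regions and percentiles among the 31585 regions present in all lists were computed with Python 3.11.15, pandas 2.3.3 and NumPy 2.4.6, and plotted with matplotlib 3.10.9. The procedure was run on altered copies of the shControl DMSO list, with peaks removed or moved and some scores lowered. That checks the calculation only, not differences in depth or naming between the real lists. Start sites came from the RefSeq promoter table (GRCh38.p14) and from the deposited distances. No test was possible with 1 library per group. The genes and lists were chosen with earlier results of these data known. All genes of the list are accounted for, and those whose promoter peak, number of peaks or promoter rank differed are described singly, together with MBTPS1. Alternatives were other promoter distances, the authors' promoter annotation, reciprocal overlap, equal numbers of peaks, other shift thresholds and other rankings. Those on the peaks inside MBTPS1 and on the direction under rapamycin were chosen after seeing the data.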

Additional observations from a re-analysis of the deposited data

Results flagged for a closer look

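In 4 of 85 regions in or near the genes a peak was gained with rapamycin in one kind of cell and lost in the other, or shifted by 10 points or more in opposite directions in the 2 kinds. No share of all regions doing so is given here, so the count cannot be called particular to these genes. Of all distal regions in all lists, 41.6% in shControl and 39.3% in shARID1A shifted that far with rapamycin in either direction. Smaller opposite shifts were not counted, and none of these differences was tested. The ELOVL6 promoter region (chromosome 4, 110198261 to 110199030) was gained with rapamycin in shControl and lost in shARID1A. The intergenic MVK region (chromosome 12, 109613083 to 109613411) was likewise gained in shControl and lost in shARID1A. In shControl rapamycin the ELOVL6 and MVK peaks ranked 48350 and 46642 of 49783, so neither gain remained among the strongest 44760. Their peaks in shARID1A DMSO ranked 42095 and 35839 of 45700. The ACACB region 131707 bp from the start ranked stronger with rapamycin by 13.2 points in shControl and shifted by -18.1 points in shARID1A. The SCAP region 54577 bp from the start ranked stronger by 17.3 points in shControl and shifted by -12.9 points in shARID1A.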

How the results depend on the processing

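No paired analysis was possible because each group has 1 library. Numbers of genes with a promoter peak, of peaks per list and of distal peaks stayed within 1.5 times under all alternatives run for them. Peaks lost or gained did not. With equal numbers of peaks (the strongest 44760 of each list), 2 peaks were lost with the knockdown in DMSO and not 4, 3 with the knockdown in rapamycin and not 7, and 2 with rapamycin in shControl and not 1, where 1 was gained and not 2. The ELOVL6 and MVK peaks gained in the full shControl rapamycin list, at ranks 48350 and 46642, fell below that cut. With reciprocal overlap of 50%, 3 were gained with the knockdown in rapamycin and not 1, and with rapamycin in shControl 6 were lost and 5 gained. The number of promoter regions shifted in either direction was 4 with the knockdown in DMSO, and became 14 at 5 points, 0 at 20 points, 10 when ranked among promoter regions and 2 in percent of list length. With the knockdown in rapamycin it was 3, and became 11 at 5 points, 1 at 20 points and 7 among promoter regions. With rapamycin in shControl it was 6, and became 0 at 20 points and 0 in percent of list length. In shARID1A it was 2, and became 5 at 5 points and 0 at 20 points. Within the stronger 50% of each list, MBTPS1 held 1 inside peak in shControl rapamycin and 1 in shARID1A DMSO, and 0 in the remaining shARID1A list. Regions weaker with rapamycin in both kinds of cell stayed at 14 under both other rankings and were 12 of 26 with 1 region per gene, where 1 was stronger in both and not 2. With 1 library per group and unknown depth, an absent weak peak cannot be told from one below the limit of calling.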
